A study of Arabidopsis thaliana with 8 samples.

Results

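The salt response of leaves of the Arabidopsis thaliana line M6PR was measured as the difference between plants given 100 mM NaCl and plants given none. It rests on 4 of the 8 Affymetrix arrays of the series, 2 of M6PR leaves at 100 mM and 2 of M6PR leaves at 0 mM, chosen by the sample titles. The other 4 arrays, 2 of the line Col at 100 mM and 2 at 0 mM, entered the same model and served as the comparison line. The transgene of M6PR plants encodes a celery enzyme, mannose-6-phosphate reductase, which makes a precursor of mannitol, and no label used here gives the promoter or the number of lines. The sample descriptions of the M6PR arrays name the accession Ws, while the comparison line is Col, so transgene and accession cannot be told apart in any difference between the lines. All plants were sampled 20 days after sowing, 6 days after the start of treatment. Salt was given from day 14 and stepped up by 50 mM every 2 days, under 10 h of light a day. Developed, non-senescent leaves were pooled from 15 or more seedlings for each array, with a pot for each replicate. No probe set for the celery gene was analysed here, so the transgene itself did not check the line's label.

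Salt reaches leaves as an osmotic stress first and as sodium later. Plants respond with abscisic acid, which induces dehydrins and other late embryogenesis abundant (LEA) proteins that protect dehydrated cells, with wax and cutin that limit water loss, and with osmotically active solutes. Mannitol is one such solute in celery, whereas wild-type Arabidopsis makes hardly any. Growth is restrained at the same time, through cell wall enzymes, through cell cycle inhibitors and through receptor kinases that sense the wall.

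Values are log2 intensities of 22746 probe sets, and a difference of 1 is a 2-fold change. Array medians lay at 5.01 and 5.2 at 100 mM and at 5.05 and 5.13 at 0 mM. Below log2 4, called background here, lay 43.7% to 44.6% of the probe sets of each M6PR array, many at a shared lowest value of 2.15 where no decrease can show. The leaf marker RCA, rubisco activase, read 14.60 and 14.54 at 100 mM and 14.71 and 14.67 at 0 mM, at the top of the scale on all 4 arrays. The root hair expansin EXPA18 and the meristem and flower genes CLV3 and SPL lay at the lowest value on all 4 arrays, and EXPA7 lay at 2.37 on 1 salted array and at the lowest value on the others. No marker of the seed list was measured. A listed gene counts as measured here only if a probe set carried its name alone, and 8730 of the 22746 probe sets carried no gene name.

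The salted arrays differed from each other more than the unsalted ones did. The root mean square SD between replicates was 0.426 at 100 mM and 0.248 at 0 mM, and replicates correlated at r = 0.982 at 100 mM and 0.994 at 0 mM. The difference between the salted arrays, replicate 2 minus replicate 1, ran along the salt response of Col: across the 22746 probe sets Pearson's r was 0.685 and Spearman's rho 0.591. The 2 axes share no array, but all values come from one normalization and probe sets are not independent replicates. The same difference between the unsalted M6PR arrays had an r of 0.338 with the Col response. Results are therefore given for each salted array as well as for both. A fit with 1 salted array leaves the disagreement of the salted arrays out of its estimated spread, so its adjusted p does not take that disagreement in.

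**Figure D1:**
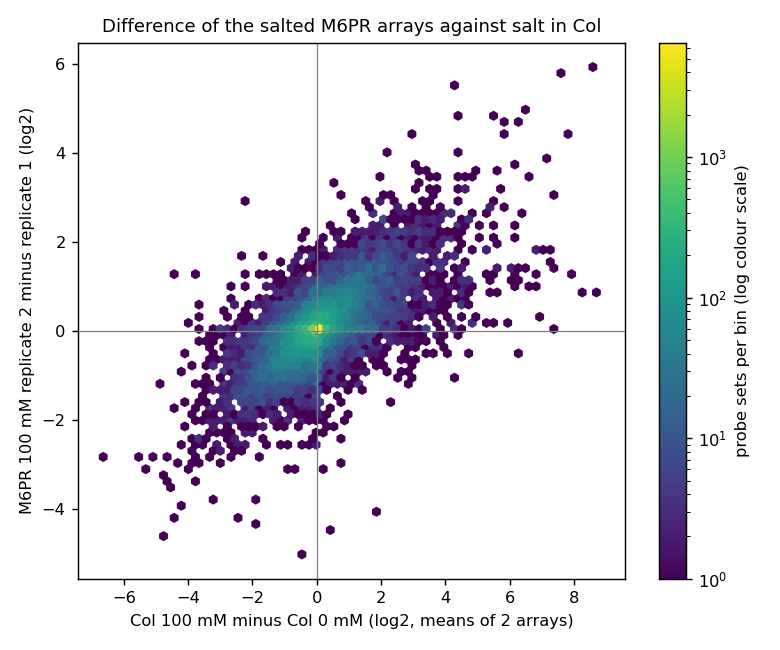
Each bin counts probe sets by the Col salt response (x axis, log2) and by M6PR 100 mM replicate 2 minus replicate 1 (y axis, log2), with the colour on a log scale. The cloud rises to the right, with r = 0.685 over 22746 probe sets.

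With both salted arrays, few genes passed the test and nearly all of them fell. At a Benjamini-Hochberg adjusted p under 0.05 (limma, 2-sided), 39 of 22746 probe sets were called, which is 0.171%: 2 higher (0.00879%) and 37 lower (0.163%) at 100 mM. An unadjusted p under 0.05 was reached by 2405. Of the 39, 21 carried 1 gene name and 18 none; both groups lay above background for 21, the salted group alone lay below it for 11, and both groups lay below it for 7. At least a 2-fold difference was fitted for 24. With each array centred on its median, a shift of -0.0174 in the median change, 46 were higher and 198 lower. The count hung on single arrays. It rose when either salted array of M6PR was left out, and the excess of falls then turned to an excess of rises. That excess of rises hung on the processing. Replicate 1 alone gave more falls than rises without the dimmest 25% of probe sets, and so did replicate 2 alone after centring on array medians. Leaving out unsalted replicate 1 or 2 of M6PR gave 191 or 388, leaving out either Col 100 mM array gave 21, and leaving out either Col 0 mM array gave 10. With only the 4 M6PR arrays in the model 0 probe sets passed limma's adjusted test, while 697 higher and 1278 lower had an unadjusted p under 0.05.

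The one named gene that rose was AT2G16800. It read 9.56 and 9.43 on the M6PR 100 mM arrays and 8.78 and 8.75 on the M6PR 0 mM arrays. The pairs stood well apart, and the gene rose by 0.73 ± 0.05 (SE, n = 2 each; adjusted p = 0.0415), or 1.66-fold. Its difference with salt in Col was 0.05 at an already high level, 9.50 and 9.52 at 100 mM and 9.46 and 9.45 at 0 mM in Col. A probe set with no gene name here made up the second rise, by 0.27.

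Among the named genes that passed the test, the largest measured fall was that of AT5G25440, a kinase gene of the receptor-like cytoplasmic kinase group, with 7.24 and 7.55 at 100 mM against 9.59 and 9.66 at 0 mM. All salted values lay below the unsalted ones, and the gene fell by 2.23 ± 0.16 (SE; adjusted p = 0.0488), or 4.69-fold. AT5G62865 was below background with salt, at 3.43 and 3.56, against 6.20 and 6.12 without, so it was at least 4.47-fold lower (adjusted p = 0.0275). AT1G51790, a leucine-rich repeat receptor kinase with a malectin-like domain, fell to 3.99 and 4.19 with salt, against 6.52 and 6.25 without (adjusted p = 0.0391), and 1 of its salted arrays lay below background. AT3G03000 and AT3G54150 stood just above background without salt, at 4.3 and 4.36 and at 4.48 and 4.3, and near the lowest value with it, so the measured fall is at least 1.26-fold and at least 1.31-fold, smaller than the fitted log2 changes of -2.03 and -1.97.

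SIM, which encodes the cyclin-dependent kinase inhibitor SIAMESE that keeps trichome cells from dividing while they enlarge, fell as well. It read 5.83 and 5.99 on the M6PR 100 mM arrays and 7.65 and 7.62 on the M6PR 0 mM arrays, and fell by 1.72 ± 0.12 (SE; adjusted p = 0.0447). ELC, a component of the ESCRT complex that sorts membrane proteins and acts in cell division, had 7.60 and 7.73 at 100 mM against 8.47 and 8.59 at 0 mM, a change of -0.86 (adjusted p = 0.0467). AT1G04200 had 7.19 and 7.17 with salt and 8.25 and 8.24 without, a change of -1.06 ± 0.03 (SE; adjusted p = 0.00700), with replicates that nearly coincided. AT5G11650 changed by -1.39, AT1G26580 by -0.89, AT4G09150 by -0.70 and AT2G44920, which encodes a pentapeptide repeat protein of the thylakoid lumen, by -0.77. AT3G50140 was called at -0.63 with all values below background, and no fold is given for it.

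**Figure D2:**
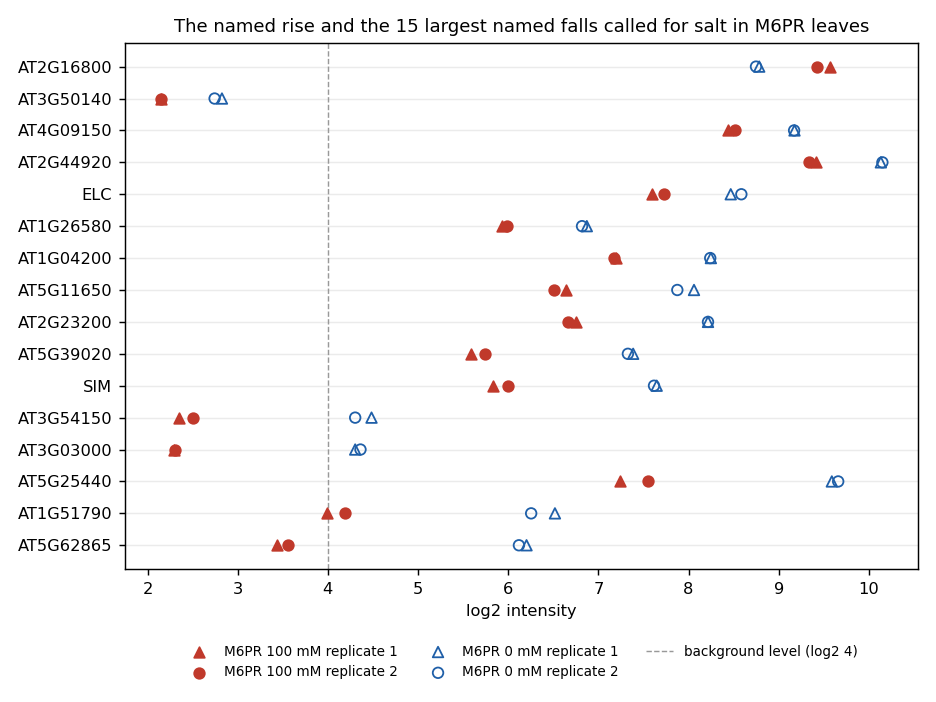
Log2 intensity on each M6PR array of the 1 named gene that rose and the 15 named genes that fell most, red filled symbols for 100 mM, blue open symbols for 0 mM, ordered by change. Replicates lie close together in every row, and the salted and unsalted pairs do not overlap. The test that chose these rows favours both traits.

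Of these 16 genes, AT3G03000 and AT1G04200 kept their calls whichever array was left out. Leaving out M6PR 100 mM replicate 1 ended 7 of the 16 calls and leaving out replicate 2 ended 0; M6PR 0 mM replicates 1 and 2 ended 6 and 3, and each Col array ended 13. The highest adjusted p over these fits was 0.155 for AT5G25440 and 0.142 for AT2G16800, and 0.1075 for SIM. The directions held in every such fit.

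Receptor kinases with malectin-like outer domains were among the falls. The CrRLK1L family, whose members FER (FERONIA) and THE1 (THESEUS1) sense the state of the cell wall and act in growth control, had 11 measured genes. Of these, 7 lay above background, 6 of the 7 were lower on both salted arrays, and 2 were called lower, against 37 of all 22746 probe sets. AT5G39020 read 5.59 and 5.74 at 100 mM and 7.39 and 7.33 at 0 mM, so it fell by 1.69 ± 0.05 (SE; adjusted p = 0.00727), or 3.23-fold. AT2G23200 read 6.75 and 6.67 with salt and 8.22 and 8.22 without, so it fell by 1.51 (adjusted p = 0.0318). The salted arrays were close to each other and far from the unsalted ones for both genes.

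FER had 9.86 and 10.29 at 100 mM against 11.01 and 11.00 at 0 mM, and THE1 had 9.0 and 9.24 at 100 mM against 9.90 and 10.08 at 0 mM. Both were lower on each salted array without passing the test (changes of -0.93 and -0.87, adjusted p = 0.174 and 0.225). AT2G39360 had 5.98 and 6.22 at 100 mM and 7.26 and 7.14 at 0 mM (adjusted p = 0.222), and AT5G39030 had 5.2 on both salted arrays against 5.88 and 5.48. AT5G59700 was the exception above background, with a change of 0.73 and overlapping arrays. The family's median change above background was -0.93, against -0.0091 over all probe sets above background. Over the whole array both salted arrays lay above both unsalted ones for 12.7% of probe sets and below them for 15.7%, 28.4% in all. Among the 12964 probe sets above background the shares were 19.4% and 25.3%, 44.7% in all. THE1 and AT5G39020 also differed from Col, where their differences with salt were 1.54 and 0.32 (differences between the lines of -2.41 and -2.01, adjusted p = 0.0437 and 0.00683), while AT2G23200 fell in Col too, by 1.41, a difference between the lines of -0.09 (adjusted p = 0.771).

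The leucine-rich repeat kinases of subfamily I, which carry a similar outer domain, had 32 measured genes but only 4 above background. AT1G51790 was the one called, against 39 of all 22746 probe sets. AT1G51805 had 10.44 and 10.15 at 100 mM against 11.29 and 10.93 at 0 mM, a change of -0.82 (adjusted p = 0.210). AT5G59670 read 6.80 and 5.95 with salt and 7.01 and 6.96 without, a change of -0.61. AT3G46370 went the other way, with 7.04 and 6.61 at 100 mM against 6.06 and 6.33 at 0 mM, a change of 0.63. Neither AT5G59670 nor AT3G46370 passed the test.

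No gene of the dehydrin, LEA and cold-regulated list was called with both arrays, although some differences were large. Of 7 measured genes, 6 were above background and 4 were higher on both salted arrays, with a median change of 1.65 among the 6. The share higher on both was 19.4% among all probe sets above background. An unadjusted p under 0.05 in limma was reached by 4 of the 7, all higher, against 2405 of all 22746 probe sets in either direction. AT3G02480, a small LEA-type protein gene, read 7.49 and 8.83 at 100 mM, against 2.50 and 3.30 at 0 mM. It was at least 17.9-fold higher (change of 5.26 ± 0.57 SE, adjusted p = 0.0813), and it passed the test with salted replicate 1 alone (adjusted p = 0.0427) but not with replicate 2 alone (adjusted p = 0.0686). LEA4-5 read 5.58 and 6.75 with salt and lay at 3.93 and 3.84, just below background, without. The dehydrin gene LTI30 read 9.05 and 10.51 with salt and 7.42 and 8.24 without.

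For AT3G02480, LEA4-5 and LTI30, replicate 2 was the higher salted array, by over 1 log2 unit in each case. COR15A, whose product protects chloroplast membranes, was the other way about, at 13.45 and 13.28 with salt and 11.59 and 12.43 without (adjusted p = 0.222). COR15B and COR47 overlapped between the groups. In Col AT3G02480 and LTI30 rose by 7.96 and 5.64, and the differences between the lines, -2.69 and -3.69, did not pass the test (adjusted p = 0.197 and 0.158). AT3G02480 lay at 2.50 on both Col 0 mM arrays, below background, so the size of its Col rise is not measured.

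Other genes of the drought and abscisic acid field were thinly covered by the probe sets with a gene name here. WSD1, a wax ester synthase gene of the epidermis, lay at the lowest value on the M6PR 0 mM arrays (both within 0.01 of 2.15) and at 6.16 and 5.23 at 100 mM. Each salted array alone gave a call for it (adjusted p = 0.00239 and 0.0231), while both together did not (adjusted p = 0.0752), and it was at least 3.23-fold higher. In Col, WSD1 was above background in both groups, with 5.49 and 5.53 at 100 mM and 5.92 and 5.63 at 0 mM, and the difference between the lines was 3.80 (adjusted p = 0.0512). BZIP53, a factor that activates proline breakdown at low energy, read 12.46 and 12.16 with salt and 11.40 and 11.53 without (adjusted p = 0.141). Of the enzymes around mannose and mannitol, the sorbitol dehydrogenase gene AT5G51970 read 10.91 and 10.66 at 100 mM and 10.90 and 10.78 at 0 mM, and the phosphomannomutase gene PMM read 10.27 and 10.70 at 100 mM and 10.54 and 10.39 at 0 mM. Both overlapped between the groups. The transport genes SOS1, HKT1 and NHX1, the stress markers RAB18, RD29B and RD29A, P5CS1 and NCED3 of proline and abscisic acid synthesis, AT2G21250, AT2G21260, ELI3-1 and ELI3-2 were not analysed here, nor was any gene of the NAC factor, cysteine-rich receptor kinase or aquaporin lists.

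The genes of flavonoid and anthocyanin synthesis, which make red pigments of stressed leaves, were higher on the salted arrays in most cases, and most of all on replicate 1. Of 7 measured genes, 6 were higher on both salted arrays, against 12.7% of all probe sets and 19.4% of those above background. By limma 3 had an unadjusted p under 0.05, against 2405 of all 22746 probe sets, and 0 were called. UGT78D3, among the 6, lay below background, at 3.40 and 2.78 with salt and 2.78 on both unsalted arrays. DFR overlapped between the groups, with 11.63 and 10.37 at 100 mM and 11.05 and 9.59 at 0 mM. AT4G14090, a glucosyltransferase gene of anthocyanin synthesis, read 8.37 and 6.60 at 100 mM and 4.18 and 4.15 at 0 mM. UF3GT, which adds xylose to anthocyanins, read 9.41 and 7.69 with salt and 5.72 and 5.33 without. UF3GT passed the test with replicate 1 alone (adjusted p = 0.0267) and not with replicate 2 alone (adjusted p = 0.152), and AT4G14090 passed with neither.

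UGT78D2 read 9.54 and 7.79 at 100 mM and 7.75 and 6.75 at 0 mM, so its salted replicate 2 barely exceeded the higher unsalted array. The same held for CHIL, with 8.53 and 7.63 with salt against 7.61 and 6.10 without. In Col the differences with salt were -3.02 for AT4G14090 and -1.99 for UF3GT, and neither passed the test there (adjusted p = 0.0956 and 0.135). That test has a spread shared by all groups, so the disagreement of the salted M6PR arrays enters it. The differences between the lines, 6.34 and 5.01, missed the threshold (adjusted p = 0.0818 and 0.0866).

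The list of genes known as markers of sugar shortage and darkness held 24 genes, of which 6 were measured here. These 6 were all lower on both salted arrays, with a median change of -1.17. Among all probe sets above background, 25.3% were lower on both. By limma 0 were called and 3 had an unadjusted p under 0.05, against 2405 of all 22746 probe sets. AT3G15630 read 9.43 and 10.47 at 100 mM and 12.16 and 12.01 at 0 mM, and it was called with replicate 1 alone (adjusted p = 0.0259) but not with replicate 2 alone (adjusted p = 0.139). MCCA, a subunit of the carboxylase that breaks down leucine, read 6.84 and 7.15 with salt and 8.98 and 8.82 without, and missed the threshold narrowly (adjusted p = 0.0516). AT3G15450 read 11.82 and 13.16 at 100 mM and 13.83 and 13.76 at 0 mM. EXO, a growth gene that responds to carbon supply, barely separated, with 11.02 and 12.38 with salt and 12.46 and 13.02 without. IVD and ETFQO, both of branched-chain amino acid breakdown, had differences of -0.35 and -0.67.

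The test between the lines gave a different picture for this list. AT3G15630 rose by 6.75 and AT3G15450 by 5.22 with salt in Col, and the differences between the lines were -8.88 and -6.53 (adjusted p = 0.0148 and 0.0484). MCCA differed by 0.09 in Col, and by -2.0 between the lines (adjusted p = 0.0371). For AT3G15630 and AT3G15450 the M6PR 0 mM values stood far above those of Col 0 mM, so unlike starting levels enter these differences. The Col 0 mM values were 6.60 and 6.81 for AT3G15450 and 2.45 and 2.57 for AT3G15630. The latter lay below background, so the sizes of the Col rise and the line difference of AT3G15630 are not measured.

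**Figure D3:**
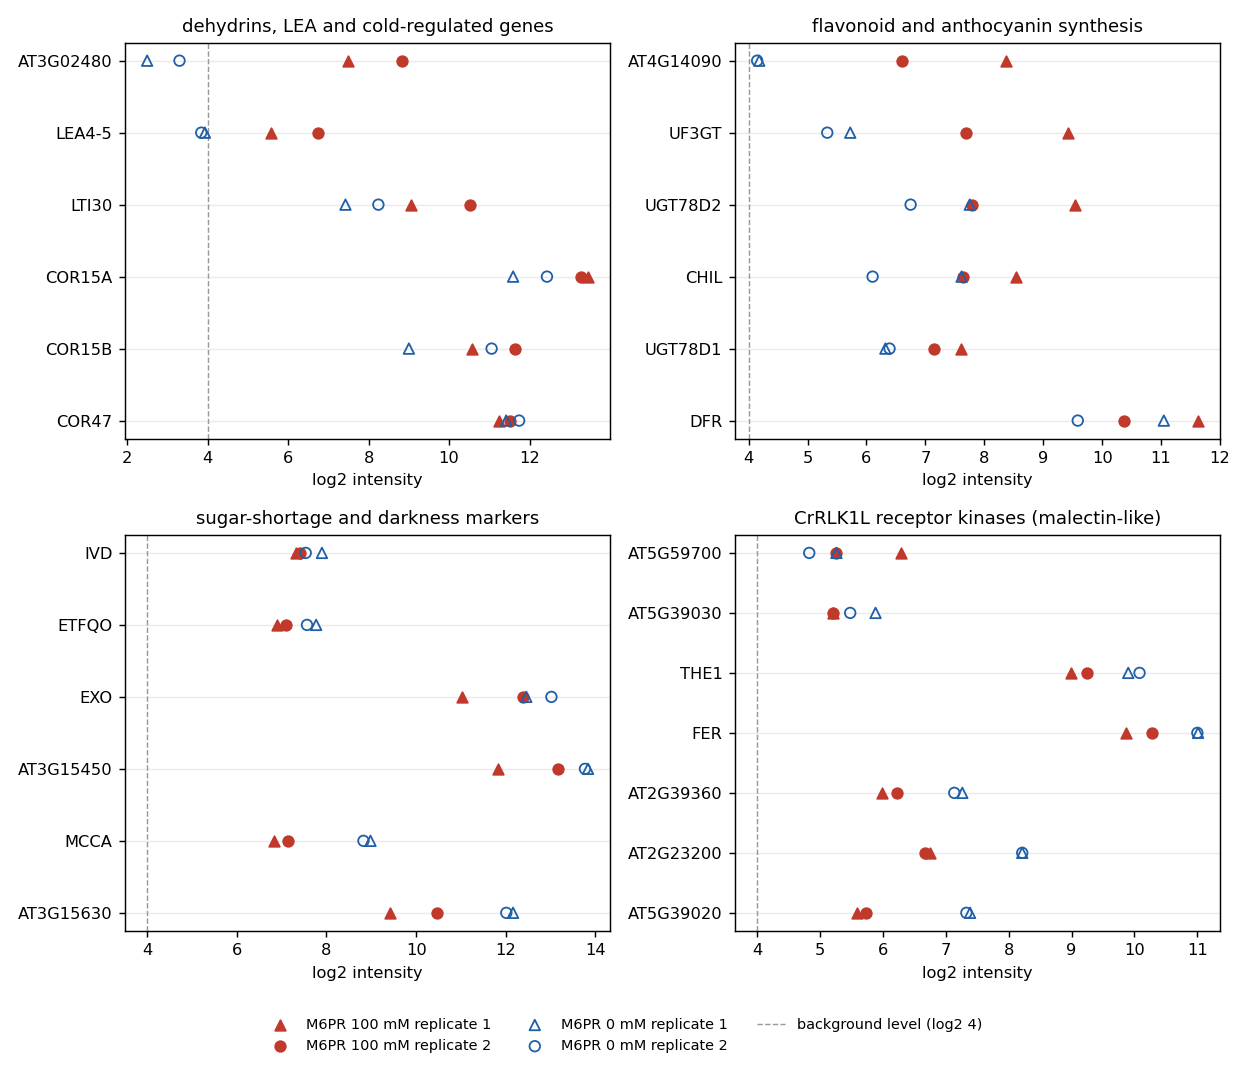
Log2 intensity on each M6PR array of the genes above background in 4 lists, red filled symbols for 100 mM and blue open symbols for 0 mM, each panel with its own x axis. The salted arrays lie to the right for most dehydrin, LEA and flavonoid genes, and to the left for 6 of 6 sugar-shortage genes and 6 of 7 CrRLK1L genes.

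Sugar transport genes differed in both directions. TMT1, a sugar carrier of the vacuole membrane, read 8.31 and 8.50 at 100 mM and 9.58 and 9.71 at 0 mM, just short of the threshold (change of -1.25, adjusted p = 0.0516). It rose in Col, with 8.25 and 8.31 at 100 mM and 7.0 and 7.15 at 0 mM, and the difference between the lines was -2.46 (adjusted p = 0.0131). SAG29, which encodes the sucrose exporter SWEET15 of ageing leaves, read 6.91 and 6.87 at 100 mM and 3.19 and 4.14 at 0 mM. Its adjusted p was 0.676 in a model whose spread is shared by all groups, and its Col 100 mM arrays lay at 4.06 and 8.80. SWEET4 read 7.53 and 7.86 with salt and 6.62 and 6.29 without (adjusted p = 0.418). Of 12 measured genes of this list, 5 were higher on both salted arrays and 2 lower, against 19.4% and 25.3% of all probe sets above background. By limma 0 were called, and 3 had an unadjusted p under 0.05 (2 higher and 1 lower), against 2405 of all 22746 probe sets.

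Genes of wall loosening split as well: 8 of the 24 measured were higher on both salted arrays and 6 lower. Over all probe sets the shares were 12.7% and 15.7%, and above background they were 19.4% and 25.3%. By limma 0 were called, and an unadjusted p under 0.05 was reached by 7 higher genes and 1 lower. The expansin gene EXPA8 read 8.11 and 7.27 with salt and 5.90 and 5.90 without. The xyloglucan transferase gene XTH19 read 7.14 and 8.57 with salt and 6.56 and 5.44 without. Its neighbour in the family, XTH18, read 3.66 and 7.07 with salt and 7.97 and 7.45 without, so replicate 1 alone set the size of its change. The expansin-like gene EXLA1 read 9.90 and 11.12 at 100 mM and 11.90 and 11.97 at 0 mM, while in Col it rose by 6.82, a difference between the lines of -8.24 (adjusted p = 0.0288).

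Genes of rapid stress and defence signalling were likewise mixed. STZ, a zinc finger repressor induced by salt, read 10.00 and 11.07 at 100 mM and 9.63 and 9.78 at 0 mM, a change of 0.83 (adjusted p = 0.707). In Col, STZ rose by 6.65 to a mean of 11.52 at 100 mM, against 4.87 at 0 mM, and the difference between the lines was -5.82 (adjusted p = 0.0410). CML38, a calmodulin-like protein gene of touch and wounding, read 8.11 and 9.29 with salt and 9.72 and 9.67 without, and the difference from Col was -5.27 (adjusted p = 0.0414). WRKY53, a factor of leaf ageing, read 6.46 and 6.93 with salt and 5.2 and 5.12 without (adjusted p = 0.106). WRKY22, a factor of defence signalling, read 4.42 and 6.19 with salt and 7.55 and 7.36 without (adjusted p = 0.335), and it was called with replicate 1 alone (adjusted p = 0.0229). SAG101, a partner of EDS1 in defence, read 5.45 and 5.48 with salt and 6.74 and 6.32 without (adjusted p = 0.119). ATG8E, of the autophagosome, read 8.04 and 7.90 with salt and 9.95 and 9.53 without (adjusted p = 0.167). Of 10 measured autophagy genes, 2 were higher and 2 lower on both salted arrays, against 19.4% and 25.3% of all probe sets above background. The higher ones were ATG8B and ATG8G of the same family, with changes of 0.27 and 0.26.

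Photosynthesis genes differed little. Among 10 measured genes of the photosystems and the Calvin cycle, 5 were lower on both salted arrays, 0 were higher on both, and the median change was -0.13. The shares among all probe sets above background were 25.3% lower and 19.4% higher. By limma 0 were called and 2 had an unadjusted p under 0.05, against 2405 of all 22746 probe sets. LHCB4.3, a light-harvesting protein gene of photosystem II, read 12.06 and 11.80 with salt and 12.59 and 12.52 without (adjusted p = 0.269). TAPX, the ascorbate peroxidase of the thylakoid, read 10.45 and 10.42 with salt and 10.85 and 10.94 without (adjusted p = 0.157). Both fell in Col, where the changes were -1.73 and -0.96.

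With 2 arrays a group a large difference can miss the threshold, so the distance between the nearest salted and unsalted arrays was also taken, a measure chosen after the values were seen. It exceeded 2-fold with the salted arrays higher for 96 probe sets (0.422%) and lower for 218 (0.958%). In Col the same counts were 1259 (5.54%) and 947 (4.16%). Of these M6PR probe sets, 14 were among the 39 called. Without M6PR 100 mM replicate 1 the counts were 501 higher (2.2%) and 341 lower (1.5%), and without replicate 2 they were 471 (2.07%) and 671 (2.95%). With 1 unsalted array left out they were 202 and 292 (replicate 1) or 217 and 388 (replicate 2).

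AT2G37870, a lipid transfer protein gene, had the widest distance upward, with 8.49 and 8.61 at 100 mM and 4.83 and 4.35 at 0 mM. ORA47, a transcription factor of the jasmonate and wound response, read 9.61 and 9.05 with salt and 5.73 and 4.35 without. AT1G04770, related to sulphur-deficiency-induced proteins, read 10.97 and 10.00 with salt and 6.07 and 7.19 without. Their changes in M6PR were 3.96, 4.29 and 3.86, none past the test (adjusted p = 0.0813, 0.123 and 0.107). In Col AT2G37870 rose by 4.47 and ORA47 by 4.72, and AT1G04770 differed by 2.14 without passing the test, whose spread is shared by all groups. The differences between the lines for AT2G37870, ORA47 and AT1G04770 did not pass it either (adjusted p = 0.736, 0.947 and 0.319).

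Other genes far higher on both salted arrays were AT5G52050, the efflux carrier DTX50, at 8.63 and 8.53 with salt and 5.0 and 6.47 without, and PUB19, a ubiquitin ligase gene, at 5.92 and 6.11 with salt and 2.93 and 2.52 without. AT1G60590 read 8.32 and 6.79 with salt and 3.52 and 3.98 without.

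Among the lower genes, AT3G23550, an efflux carrier of the MATE family, read 3.49 and 4.66 at 100 mM and 8.35 and 9.56 at 0 mM. It lay below background on all Col arrays, between 2.34 and 3.53. AT3G16530, a lectin-like gene, read 7.63 and 8.55 with salt and 11.10 and 11.14 without, and AT1G52200 read 4.3 and 6.11 with salt and 8.47 and 8.50 without. AT3G46880 read 4.87 and 5.30 at 100 mM and 7.47 and 7.86 at 0 mM, close to the threshold (adjusted p = 0.0527). In Col it fell by 2.78, to 3.41 and 3.48 at 100 mM, below background. AT5G27920, AT5G18470 and AT4G28085 had differences of -2.38, -2.93 and -2.49.

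Taken one at a time, the salted arrays gave different pictures. In this fit a lone salted array was assumed to vary like the other groups. The salted M6PR pair had the largest root mean square SD of the 4 groups, 0.426. It was 0.248 for M6PR 0 mM, 0.404 for Col 100 mM and 0.172 for Col 0 mM. Leaving out 1 of the pair takes that spread out of the test. For genes on which the pair disagreed, the calls below therefore come too easily. Replicate 1 alone gave 829 calls (3.64%), 535 higher (2.35%) and 294 lower (1.29%). Of the 535, 388 were probe sets whose group means both lay below background, and above log2 6 the counts were 110 higher and 249 lower. Replicate 2 alone gave 140 calls (0.615%), 105 higher (0.462%) and 35 lower (0.154%), of which 19 and 21 were above log2 6. All 39 probe sets called with both arrays were called with replicate 1 alone and 18 with replicate 2 alone.

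**Figure D4:**
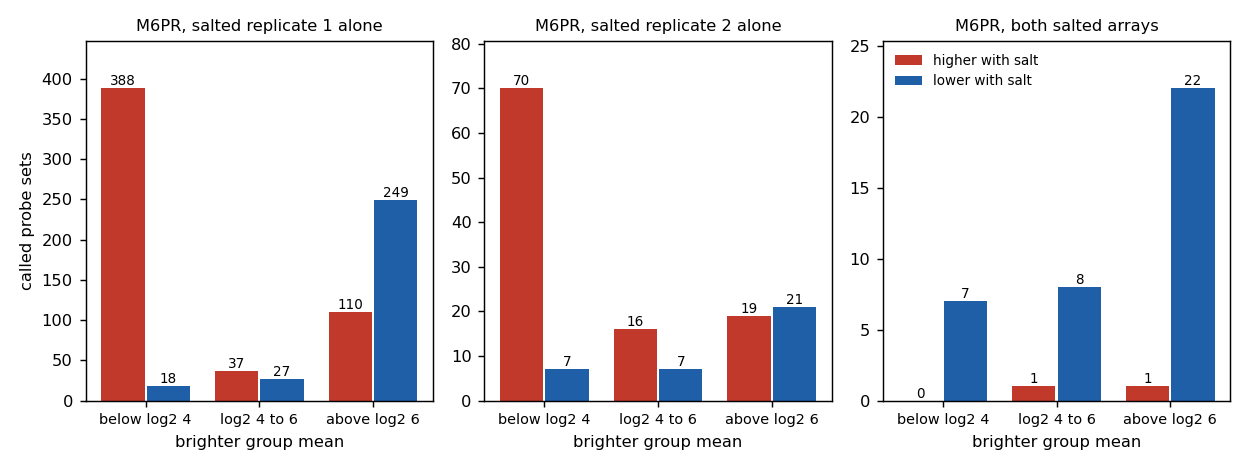
Probe sets called higher (red) and lower (blue) at 100 mM in M6PR leaves with replicate 1 alone, replicate 2 alone and both, by the brighter of the salted and unsalted means, each panel with its own count axis. For each array alone, most higher calls lie below log2 4 (388 of 535 and 70 of 105), and above log2 6 lower calls outnumber higher ones in all 3 panels.

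Replicate 1 alone called large changes that replicate 2 did not share. TRY, an inhibitor of trichome formation, read 7.26 on replicate 1 and 4.32 on replicate 2, against 4.09 and 4.16 at 0 mM. AT2G27420, a papain-type protease gene, read 6.73 and 3.94 with salt and 3.41 and 3.62 without. CPUORF47 read 6.62 and 4.74 with salt and 4.12 and 4.31 without. The AP2/ERF factor gene AT1G01250 read 6.36 on replicate 1 and 3.49 on replicate 2, against 3.92 on both unsalted arrays, so its direction turned with the array. In Col the differences with salt of TRY, AT2G27420, CPUORF47 and AT1G01250 were -3.09, -5.16, -1.13 and -3.82, opposite in sign to replicate 1, and none of the 4 passed the test in Col.

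Falls with replicate 1 alone showed the same imbalance. AT1G66940 read 5.39 and 8.98 with salt and 8.79 and 9.28 without. The peroxidase gene AT4G33420 read 3.59 and 6.22 with salt and 6.66 and 6.65 without. AT1G19380 read 8.78 and 10.82 with salt and 11.92 and 12.12 without, and the receptor kinase gene AT5G25930 read 5.35 and 7.02 with salt and 8.22 and 8.71 without. AT5G54720 read 3.09 and 4.46 with salt and 6.37 and 6.28 without. In AT1G66940 and AT4G33420 replicate 2 was within 0.44 of the unsalted mean, whereas the other 3 were more than 1 log2 unit lower on both salted arrays.

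Calls with replicate 2 alone in bright genes were smaller. AT1G05840 read 8.16 and 7.19 with salt and 8.40 and 8.36 without, and AT4G04670 read 4.68 and 6.23 with salt and 4.45 and 4.31 without, so the change lay in replicate 2. AT1G48650 and AT3G43510 rose by 0.63 and 0.52 with replicate 2 alone.

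Some bright genes were called with each salted array. AT1G17620 read 8.82 and 9.26 with salt and 10.16 and 10.20 without (adjusted p = 0.00219 with replicate 1, 0.0261 with replicate 2). The subtilase gene ATSBT5.2 read 7.88 and 8.16 with salt and 7.02 and 6.94 without (adjusted p = 0.0111 and 0.0231). AT4G37190 read 8.13 and 7.18 with salt and 6.29 and 6.30 without, AT5G01980 read 8.12 and 7.68 with salt and 8.86 and 8.83 without, and AT3G19520 read 8.02 and 7.89 with salt and 7.67 and 7.68 without. With both arrays together none of these 5 passed the test, and their adjusted p ran from 0.0752 to 0.2505.

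The genes that respond to salt in Col showed how the salted arrays differ. In Col, 1193 probe sets were called (5.24%). Of the 512 called higher with salt in Col (2.25%), replicate 1 lay above both unsalted M6PR arrays for 161 (31.4%) and below both for 245 (47.9%). Over all 22746 probe sets replicate 1 lay above both for 25.7% and below both for 28.4%. On each M6PR array 28.0% to 28.9% of the probe sets lay at the lowest value. Ties there lower the shares over all probe sets, so these are not a like-for-like baseline. Replicate 2 lay above for 264 of the 512 (51.6%) and below for 164 (32.0%), against 28.4% and 25.6% of all probe sets. Of the 681 called lower in Col (2.99%), replicate 1 was below both unsalted arrays for 296 (43.5%) and above both for 237 (34.8%), and replicate 2 was below for 417 (61.2%) and above for 131 (19.2%). Replicate 2 exceeded replicate 1 in 388 of the 512 (75.8%) and was below it in 97 (18.9%). In the 681, replicate 2 was below replicate 1 in 471 (69.2%) and above it in 157 (23.1%). Over all probe sets replicate 2 was above in 38.3% and below in 31.2%. The remaining probe sets were equal on both salted arrays, which lowers both of these shares.

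The difference between the lines was tested directly. The salt response of M6PR minus that of Col was called for 330 probe sets (1.45%), 118 higher (0.519%) and 212 lower (0.932%). Of the 39 probe sets called within M6PR, 33 were also called in this test, 31 of them lower in M6PR, and both contrasts use the same M6PR arrays. Within Col, 5 of the 39 were called in the same direction and 5 in the opposite one. AT1G04200 and ELC belong to the opposite group: AT1G04200 rose by 0.69 and ELC by 0.71 in Col (adjusted p = 0.00546 and 0.0157). AT2G44920 belongs to the same group, with -1.17 in Col (adjusted p = 0.00339). The count of 330 was 2234 without M6PR 100 mM replicate 2, 1130 and 501 without Col 100 mM replicates 2 and 1, 572 without Col 0 mM replicate 2, and 248 to 447 without any other single array.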

How the data were processed

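The authors deposited log2 intensities in a series matrix with 1 value for each probe set on each array; GCOS and RMA are named in the submitters' processing notes, and versions and the set of arrays normalized together are not given in the sources used here. Groups came from the titles. Of 22810 probe sets, 64 array controls were left out and 22746 tested, 13513 of them with 1 gene in the platform annotation, 503 with several and 8730 with none; 13436 matched RefSeq TAIR10.1, used for names. A gene was represented by its brightest probe set.

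All 8 arrays entered 1 model with 4 group means, fitted with limma 3.58.1 in R 4.3.3 (residual degrees of freedom 4, prior 0.409), with Benjamini-Hochberg adjustment over all 22746 probe sets and calls at an adjusted p under 0.05. The fit was tested on simulated data. A fold is given as "at least" where all dimmer arrays lie below log2 4, with log2 4 in their place, and is omitted where both groups do. The pots are biological replicates by the series' design text, and their number limits the precision.

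Named genes were every rise and the 15 largest falls, the 8 largest rises and falls with each salted array alone above log2 6, up to 3 non-overlapping genes per direction of 36 lists, and fixed genes; the 10 most separated genes each way were added after the values were seen. Of 1316 listed genes, 185 were measured. The members, lists and background level were chosen with earlier results of these data known. Alternatives were the dimmest 25% left out, quantile normalization, centring, another variance prior, replicate blocks, M6PR arrays alone, a 2-fold minimum, and leaving out arrays.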

Additional observations from a re-analysis of the deposited data

Results flagged for a closer look

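For 21 of the genes named above, limma's test of the salt response in M6PR minus that in Col passed an adjusted p under 0.05. Values are these differences on the log2 scale, and a negative one means a lower salt change in M6PR than in Col. Transgene and accession cannot be told apart here. In all 19 genes with a negative difference the mean of the M6PR 0 mM arrays lay above that of the Col 0 mM arrays, by 0.634 to 9.58, and in both genes with a positive one it lay below. The same unsalted arrays enter the difference itself, so unlike starting levels are part of each value.

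AT3G15630 had -8.88, EXLA1 -8.24 and AT3G15450 -6.53, and STZ and CML38 had -5.82 and -5.27. TMT1 and MCCA, of sugar transport and leucine breakdown, had -2.46 and -2.0. Among receptor kinases THE1 had -2.41, AT5G39020 had -2.01 and the cytoplasmic kinase gene AT5G25440 had -2.05. AT5G62865 had -2.85, AT1G17620 -2.48, AT3G54150 -2.06 and AT3G03000 -1.99. Smaller differences were -1.75 for AT1G04200, -1.57 for ELC, -1.01 for AT4G09150, -0.64 for AT1G26580 and -0.63 for AT3G50140, the last with every array below background. Higher in M6PR were AT3G19520 by 0.63 and AT2G16800 by 0.68. AT5G62865, AT3G54150 and AT3G03000 lay below background on all Col arrays, so their Col changes, and the size of their differences, are not measured.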

How the results depend on the processing

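With both salted arrays, 39 probe sets were called, 2 higher and 37 lower. Leaving out the dimmest 25% gave 116 (27 higher, 89 lower), centring 244 (46 and 198), the M6PR arrays alone 0, and a 2-fold minimum 24 (0 and 24). A further quantile normalization gave 4 higher. Leaving out 1 array gave 10 to 829 calls, 0 to 535 higher and 10 to 354 lower, and leaving out M6PR 100 mM replicate 1 with Col 100 mM replicate 1, chosen after seeing the data, gave 435 (328 and 107). The trended prior gave 33.

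Replicate 1 alone gave 342 higher, against 535, without the dimmest 25%. Replicate 2 alone gave 81 calls after centring (30 higher) and 13 without the dimmest 25% (9 higher, 4 lower), against 140. The difference between the lines gave 1022 calls after centring (470 higher, 552 lower), and 248 to 2234 with 1 array left out (56 to 1321 higher, 116 to 913 lower). Counts by nearest arrays ran from 202 to 501 higher and from 292 to 671 lower with 1 M6PR array left out.

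The replicate block gave 13 calls for salt in M6PR (11 lower) and 53 for the difference between the lines (24 and 29); a block within each line, added later, gave 16 (4 and 12) and 17 (5 and 12). Of the 16 called genes named, the replicate block ended 14 calls and the block within each line 13. Differences of replicate 2 minus replicate 1 correlated across probe sets at 0.486 between the M6PR groups, 0.0153 between the Col groups and -0.147 between the salted groups. The numbers were not taken as pairs, since no label ties them to a shared day or batch and not every pair of groups moved together; within M6PR the replicates did deviate together.

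With 1 array left out AT1G01250 ran from -0.434 to 2.44 and PDF1.2 from -3.75 to 0.374. AT1G01250 turned to -0.434 without M6PR 100 mM replicate 1, also with Col 100 mM replicate 1 left out. PDF1.2 turned to 0.0161 without M6PR 100 mM replicate 2 and to 0.374 without M6PR 0 mM replicate 1. The cause was not tested for any of these shifts. No other direction turned among the 86 genes followed. Values near the lowest intensity cannot show a decrease, and with 2 arrays a group large differences can miss the threshold.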

Other observations

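Some genes differed between replicates 1 and 2 in both M6PR groups. The plant defensin gene PDF1.2, a marker of jasmonate and ethylene defence, read 10.40 and 6.99 at 100 mM and 12.45 and 8.32 at 0 mM, and its near-identical copy PDF1.2b read 9.58 and 6.31 at 100 mM and 11.32 and 7.66 at 0 mM. Replicate 1 was the higher array in each group, and signal shared between the copies was not tested. In Col, PDF1.2 read 6.63 and 6.43 at 100 mM and 11.40 and 11.02 at 0 mM.

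Genes of dividing cells ran the other way. PRL, a replication licensing factor, read 4.86 and 7.42 at 100 mM and 5.62 and 6.94 at 0 mM, and the mitotic kinase gene AUR1 read 3.52 and 6.03 at 100 mM and 4.21 and 5.52 at 0 mM. Replicate 2 was higher in each group, and the salted and unsalted arrays overlapped for both genes.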
